A study of Mus musculus with 15 samples.

Results

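The DNA repair genes described here are the 79 genes, of 14392 listed in the expression table, whose names place them in the main repair gene families. They were chosen by name alone: names that start with Xrcc, Fanc, Ercc or Parp, names with Msh, Mlh, Lig or Rad followed by a digit, and the genes Brca1, Brca2, Atm, Atr, Chek1, Chek2, Mdc1, Trp53bp1, Rnf8, Rnf168, Mre11a and Nbn. The rule itself uses names and no measured value, but it was set with earlier results of these data known. By role, 63 of the 79 are core repair or checkpoint genes, and 16 share only a family name, such as the cohesin subunit Rad21, the meiotic genes Msh4 and Msh5 and most of the smaller PARP enzymes. The data were 8 RNA-seq libraries of mouse embryos, with 2 libraries for each pairing of genotype (WT or cKO) and stage (zygote or 2-cell embryo). Each library held 10 embryos, and cDNA was made by Smart-seq2. The cKO embryos came from Usp16 fl/fl;Gdf9-Cre mothers mated with WT males, Gdf9-Cre being active in oocytes from an early follicle stage. They are labelled as lacking the maternal Usp16 allele and carrying the paternal one, so Usp16 transcripts from the embryo's own genome remained possible. The paper gives a C57BL background for all WT and cKO mice. Mothers were 21 to 23 days old and were superovulated, males were 10 to 12 weeks old, and zygotes were taken 28 h after hCG. The time at which 2-cell embryos were taken is not given in the sources used here. Embryos were kept in KSOM medium, and the labels do not say whether the 2 libraries of a group came from separate mothers, so the tests measure only the spread between these libraries.

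USP16 is a deubiquitinase that removes ubiquitin from lysine 119 of histone H2A. Ubiquitin on H2A is also part of the response to DNA breaks, in which ATM phosphorylates H2AX, MDC1 binds it, and the ubiquitin ligases RNF8 and RNF168 prepare chromatin for 53BP1 (Trp53bp1) or for BRCA1. The zygote inherits its transcripts from the oocyte, and in the mouse the embryonic genome is activated mainly at the 2-cell stage while maternal transcripts are degraded. A repair gene can therefore be supplied by the mother, by the embryo or by both.

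FPKM scales fragments by transcript length and by the mapped fragments of the library, so levels can be compared between genes on this scale. Values under 1 had been set to 1 before deposit, which is called the floor below. Pairs of values given without a group follow the order WT zygote, cKO zygote, WT 2-cell, cKO 2-cell. Of the 79 members, 56 were above the floor in all 8 libraries. Tests were made with limma on log2(FPKM + 1), fitted over all 14392 genes with 1 weight for each group, and a gene was called at a Benjamini-Hochberg adjusted p under 0.05. All log2 differences below are on this scale, which understates the change of genes with low values, and all adjusted p are from this fit. Beside it, genes were counted whose group means differed by more than 3-fold, the rule of the study. The smallest two-sided p of an exact permutation test between groups of 2 libraries is 0.333, so no single gene was tested alone.

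The cKO 2-cell libraries were the least alike. Among the members, 28 of 79 (35.4%) differed by more than 2-fold between the 2 cKO 2-cell libraries, against 30.4% of all listed genes. That number was 1 in WT zygotes, 0 in cKO zygotes and 3 in WT 2-cell embryos. The sum of FPKM over all genes was 770989 in cKO 2-cell replicate 2 and between 547752 and 593317 in the other libraries, and the members summed to 1070 FPKM in that library against 1557 in replicate 1. Usp16 itself was at 184 and 187 FPKM in WT zygotes, at 16.8 and 22.0 in cKO zygotes, at 168 and 183 in WT 2-cell embryos, and at 168 and 84.8 in cKO 2-cell embryos. The summed level of 12 oocyte genes was 11633 to 12246 FPKM in WT zygotes, 11969 to 12007 in cKO zygotes, 5074 to 6207 in WT 2-cell embryos and 1215 to 2723 in cKO 2-cell embryos. The 9 listed genes of a 2-cell marker list, with Zscan4 family members and Zfp352, summed to 10.4 to 11.5, 11.7 to 14.5, 603 to 839 and 293 to 354 FPKM in the same order. Of 12 cumulus and granulosa markers, 4 were listed, at summed levels between 21.1 and 43.0 FPKM in all libraries, and 4 of 7 sperm markers were listed, at 4 to 23.1 FPKM. The part of these levels in the results below was not tested. In such pools, fewer embryos at a given stage and less RNA per embryo cannot be told apart.

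**Figure D1:**
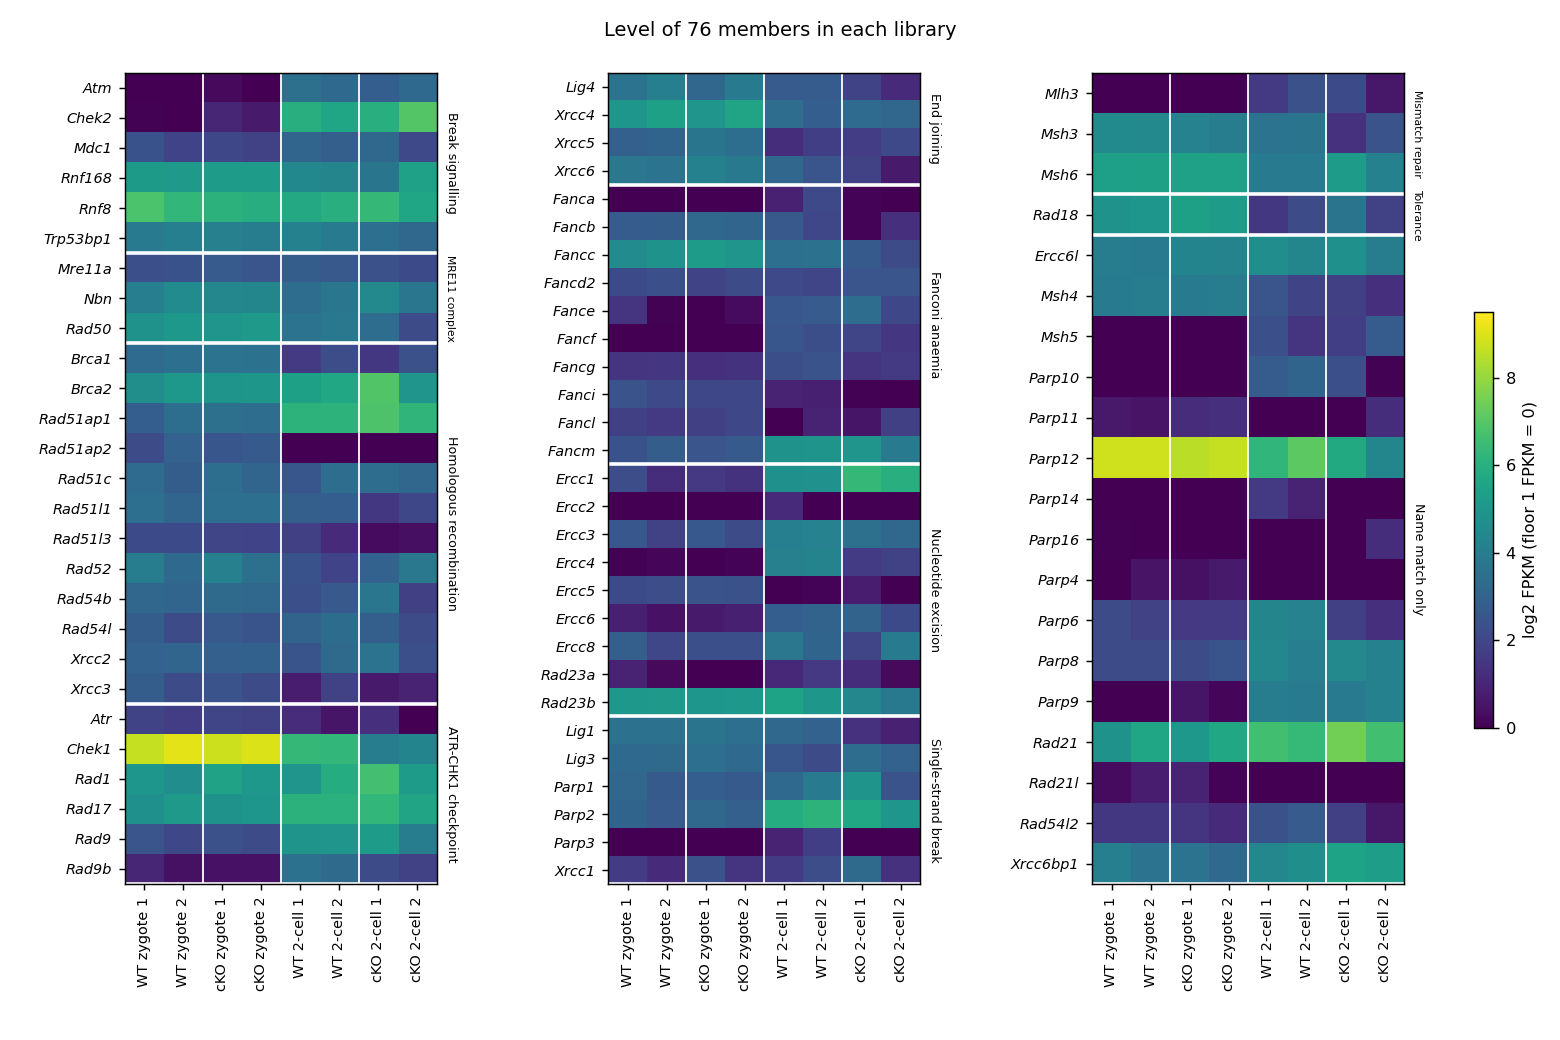
Level of 76 of the 79 members (rows, grouped by pathway) in each of the 8 libraries (columns) as log2 FPKM, on which the floor of 1 FPKM is 0. Chek1 and Parp12 were the members with the highest level in zygotes of both genotypes, and most of the rows at the floor in zygotes were above it in WT 2-cell embryos.

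In WT embryos, the repair genes changed in both directions between the zygote and the 2-cell stage. With limma, 25 of the 79 members rose, where 36.6% of all genes did, and 19 fell, where 14.9% of all genes did. The rise and the fall covered 31.6% and 24.1% of the members. By the 3-fold rule, 20 members were higher in 2-cell embryos, against a background of 26%, and 8 were lower, against 8.78%. The median log2 difference was 0.17 over the members and 0.27 over all genes. With median-ratio scaling, in which the typical gene has the same level in every library, the medians were 0 and 0.03. Under this scaling limma called 30 members lower instead of 19, and 20.5% of all genes instead of 14.9%.

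In cKO embryos the members also changed in both directions between the stages, with 14 members higher in 2-cell embryos (20.7% of all genes) and 18 lower (18.2% of all genes). By the 3-fold rule, 17 were higher, against a background of 22.8%, and 19 lower, against 19.2%. WT and cKO stage comparisons share no library, but both came from the same model with a shared gene-wise spread, so their calls are not independent. The 13 members that rose in both genotypes made up 52% of those that rose in WT and 92.9% of those that rose in cKO. Likewise 13 members fell in both, 68.4% of the WT list and 72.2% of the cKO list. The overlap over all genes was not counted, so these shares are not shown to be particular to the members. A member called in a single genotype is not thereby shown to differ between genotypes, and of the 24 such members the difference between the stage changes was called for Parp6 and no other.

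**Figure D2:**
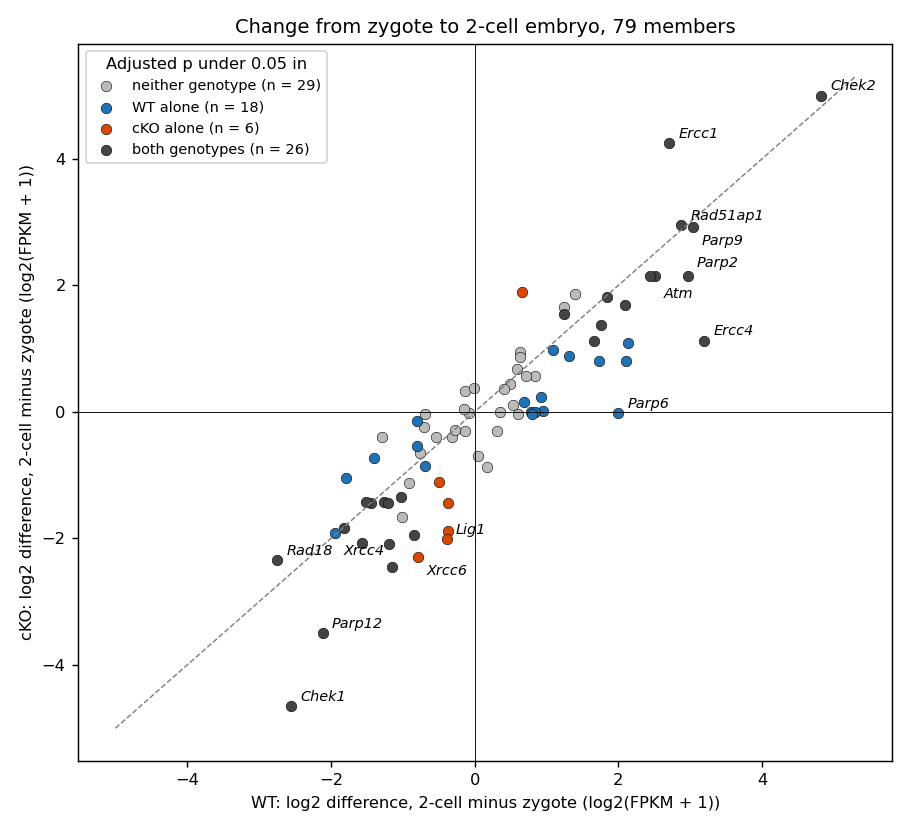
Change of each of the 79 members from zygote to 2-cell embryo, as the log2 difference on the log2(FPKM + 1) scale, in WT (x axis) and in cKO embryos (y axis), with points coloured by the genotypes in which the change had an adjusted p under 0.05. Of the members, 26 were called in both genotypes, and Ercc4, Parp6 and Chek1 lie well below the dashed line of equal change.

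Of the checkpoint kinases, Atm and Chek2 rose between the stages and Chek1 fell. ATM and its effector kinase CHK2 respond to double-strand breaks, whereas ATR and its effector CHK1 respond to stalled replication forks. Atm was at the floor in WT zygotes and in 1 cKO zygote library, with 1.20 FPKM in the other. In 2-cell embryos Atm was at 11.3 and 9.60 FPKM in WT and at 7.18 and 9.52 in cKO, a log2 difference from zygotes of 2.51 (SE 0.19, adjusted p = 0.00014) in WT and 2.15 (SE 0.28, adjusted p = 0.0022) in cKO. Every 2-cell library was above every zygote library.

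Chek2 had the largest rise of any member in both genotypes. It was at 1.03 and 1 FPKM in WT zygotes, 2.04 and 1.59 in cKO zygotes, 64.0 and 48.9 in WT 2-cell embryos, and 63.4 and 124 in cKO 2-cell embryos. The log2 difference was 4.82 in WT (SE 0.28, adjusted p = 7.1e-05) and 5.00 in cKO (SE 0.41, adjusted p = 0.00063). The 2-cell libraries of WT and cKO overlapped.

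Chek1 was the member with the highest mean level in zygotes of either genotype and the one with the largest fall in cKO embryos. Its FPKM was 406 and 548 in WT zygotes, 440 and 510 in cKO zygotes, 80.7 and 78.2 in WT 2-cell embryos and 16.4 and 19.5 in cKO 2-cell embryos. The mean fell 6.00-fold in WT (log2 difference -2.56, SE 0.29, adjusted p = 0.00068) and 26.5-fold in cKO (-4.65, SE 0.44, adjusted p = 0.00091). Zygotes of both genotypes overlapped, while both cKO 2-cell libraries lay below both WT 2-cell libraries. Atr, the kinase upstream of CHK1, was low throughout, at 3.89 and 3.35 FPKM in WT zygotes, 3.92 and 3.58 in cKO zygotes, 2.33 and 1.45 in WT 2-cell embryos and 2.44 and 1 in cKO 2-cell embryos. Its fall in WT was called (log2 difference -0.69, adjusted p = 0.037), but not without WT zygote replicate 1 (adjusted p = 0.0832), WT 2-cell replicate 1 (adjusted p = 0.0683) or WT 2-cell replicate 2 (adjusted p = 0.262), and exons of Atr overlap genes on the opposite strand. Of the other members on this branch, which form or load the checkpoint clamp, Rad9, Rad9b and Rad17 rose in WT and Rad1 was not called.

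**Figure D3:**
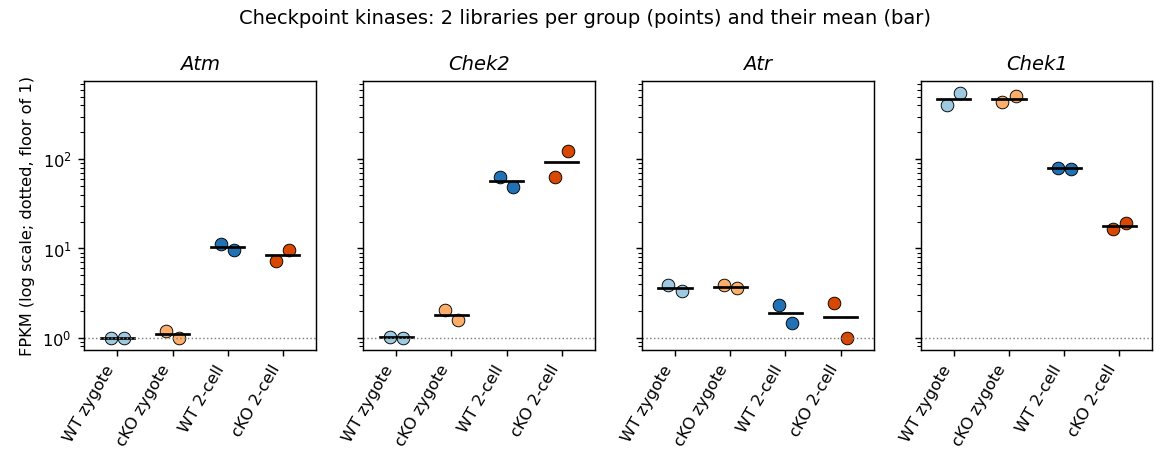
FPKM (log axis, dotted line at the floor of 1) of Atm, Chek2, Atr and Chek1 in each library, with 2 points and the mean as a bar for each group. Atm and Chek2 were at or near the floor in zygotes and clearly above it in 2-cell embryos, and Chek1 went from 406 to 548 FPKM in zygotes to 16.4 and 19.5 in cKO 2-cell embryos.

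Transcripts of the chromatin ubiquitin branch of break signalling were already present in zygotes and were not called in any comparison. Rnf8, whose protein places the first ubiquitin marks at a break, was at 112 and 77.9 FPKM in WT zygotes, 69.4 and 59.8 in cKO zygotes, 53.1 and 62.6 in WT 2-cell embryos and 80.5 and 49.2 in cKO 2-cell embryos. Both cKO zygote libraries of Rnf8 lay below both WT ones, as for 10.2% of all genes. Its log2 difference of -0.53 in zygotes was the lowest of the 79 members and was not called. Rnf168, whose protein extends the ubiquitin marks on H2A, was at 35.8 and 35.7 in WT zygotes, 37.9 and 37.7 in cKO zygotes, 21.6 and 19.8 in WT 2-cell embryos, and 13.0 and 42.8 in cKO 2-cell embryos. For Rnf168 the cKO 2-cell libraries lay on either side of the WT ones, so their difference was smaller than the spread.

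Trp53bp1, which encodes the reader 53BP1, was at 15.1 and 17.2 FPKM in WT zygotes, 17.4 and 16.2 in cKO zygotes, 17.96 and 15.4 in WT 2-cell embryos, and 11.0 and 8.95 in cKO 2-cell embryos. Both cKO 2-cell libraries were the lowest of the 8, but the difference from WT was not called (log2 difference -0.69, SE 0.35, adjusted p = 0.29). Mdc1, the scaffold that binds phosphorylated H2AX, was at 5.28 and 3.75, 4.15 and 3.62, 8.62 and 7.38, and 8.93 and 4.31 FPKM in the same order of groups. Exons of Rnf8 and Trp53bp1 overlap another gene, and Smart-seq2 reads carry no strand.

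The MRE11 complex senses and trims broken ends. Rad50 was at 28.5 and 33.8 FPKM in WT zygotes, 30.9 and 34.9 in cKO zygotes, 12.2 and 13.8 in WT 2-cell embryos, and 10.5 and 4.46 in cKO 2-cell embryos. It fell in WT (log2 difference -1.19, SE 0.28, adjusted p = 0.012) and in cKO (-2.09, SE 0.41, adjusted p = 0.0092). All 2-cell libraries were below all zygote libraries, but the WT call was lost without either WT 2-cell library (adjusted p = 0.104 without replicate 1 and 0.0748 without replicate 2), and the cKO call without cKO 2-cell replicate 2 (adjusted p = 0.0898). Mre11a, the nuclease, was between 4.36 and 6.92 FPKM in all 8 libraries and was not called. Nbn, the subunit that recruits ATM, was at 16.6 and 23.9, 20.9 and 20.4, 10.5 and 13.2, and 22.3 and 13.4 FPKM in the 4 groups in the order given above, and was not called either.

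In homologous recombination, which repairs breaks from a sister chromatid, 1 of 13 members rose and 3 fell in WT (36.6% and 14.9% of all genes), and 1 rose and 5 fell in cKO (20.7% and 18.2% of all genes). Rad51ap1, whose product stimulates strand pairing, was the member that rose in both genotypes. It was at 7.07 and 10.9 FPKM in WT zygotes, 11.5 and 10.6 in cKO zygotes, 71.0 and 71.2 in WT 2-cell embryos, and 114 and 74.6 in cKO 2-cell embryos, a rise with a log2 difference of 2.88 in WT (SE 0.33, adjusted p = 0.00068) and 2.95 in cKO (SE 0.49, adjusted p = 0.0051). The cKO call was lost without cKO 2-cell replicate 1 (adjusted p = 0.0719). Rad51ap2, a related protein's gene, was at 4.59 and 7.90 FPKM in WT zygotes, 5.87 and 6.49 in cKO zygotes and at the floor in all 2-cell libraries (log2 difference -1.82, adjusted p = 0.0062 in WT; without WT 2-cell replicate 1 or 2, adjusted p = 0.0821 and 0.0809).

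Brca1, the ubiquitin ligase that directs breaks to recombination, was at 9.99 and 11.0 FPKM in WT zygotes, 12.2 and 11.8 in cKO zygotes, 3.03 and 4.74 in WT 2-cell embryos, and 2.90 and 5.06 in cKO 2-cell embryos. It fell in WT (log2 difference -1.25, SE 0.24, adjusted p = 0.0058) and in cKO (-1.42, SE 0.36, adjusted p = 0.022). The cKO call was lost without cKO 2-cell replicate 1 (log2 difference -1.10) or replicate 2 (-1.74). It was also lost with median-ratio scaling (adjusted p = 0.0669) and when only the cKO groups were fitted (0.0661). Between genotypes at the 2-cell stage its log2 difference was 0.01 (SE 0.41). Brca2, a mediator of strand exchange, was at 25.8 and 33.9, 30.04 and 32.9, 41.8 and 51.1, and 121 and 31.4 FPKM in the 4 groups, and was not called in any comparison. Its highest level was in cKO 2-cell replicate 1, while replicate 2 was within the range of the zygotes.

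Non-homologous end joining religates breaks without a template. Of its 4 members, Xrcc4 and Xrcc5 fell in WT, where 14.9% of all genes did, and Xrcc5 and Xrcc6 fell in cKO, where 18.2% did. None of the 4 was called higher, against 36.6% of all genes in WT and 20.7% in cKO. Xrcc4, the scaffold of DNA ligase IV, was at 31.7 and 42.2 FPKM in WT zygotes, 31.4 and 47.0 in cKO zygotes, 10.6 and 7.20 in WT 2-cell embryos, and 9.99 and 8.87 in cKO 2-cell embryos. The mean of Xrcc4 fell 4.16-fold in each genotype, with adjusted p = 0.012 in WT and 0.066 in cKO. Without WT 2-cell replicate 1 or 2 the WT adjusted p for Xrcc4 was 0.0841 and 0.143.

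Xrcc5 and Xrcc6 encode the Ku80 and Ku70 subunits of the ring that binds broken ends. Xrcc5 was at 7.49 and 8.34 FPKM in WT zygotes, 12.8 and 10.9 in cKO zygotes, 2.36 and 3.41 in WT 2-cell embryos, and 3.29 and 4.24 in cKO 2-cell embryos. Its fall was called in WT (log2 difference -1.21, SE 0.25, adjusted p = 0.0081) and in cKO (-1.44, SE 0.37, adjusted p = 0.025). Without WT 2-cell replicate 1 both calls were lost, with a WT log2 difference of -1.01. The cKO call was lost without cKO 2-cell replicate 1 (log2 difference -1.29) or replicate 2 (-1.58). It was also lost with median-ratio scaling (adjusted p = 0.0568) and when only the cKO groups were fitted (0.0878). Xrcc6 was at 13.7 and 12.4, 18.2 and 14.5, 8.85 and 5.65, and 3.66 and 1.62 FPKM in the 4 groups, with a fall called in cKO (log2 difference -2.30, SE 0.48, adjusted p = 0.011; 0.051 and 0.12 without cKO 2-cell replicate 1 and 2) and not in WT (-0.79, adjusted p = 0.084). The difference between the Xrcc6 stage changes was not called (adjusted p = 0.18). Lig4, the ligase, was at 12.1 and 17.1, 8.72 and 14.7, 6.56 and 6.81, and 3.83 and 2.17 FPKM, with no call.

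The Fanconi anaemia pathway unhooks cross-links between DNA strands. In WT 4 of its 10 members rose (36.6% of all genes) and 3 fell (14.9%), and in cKO 2 rose (20.7%) and 3 fell (18.2%). Fancd2, which is monoubiquitinated to start the repair, was between 3.90 and 5.67 FPKM in all 8 libraries and was not called. Its partner Fanci was at 5.39 and 4.28 FPKM in WT zygotes, 4.12 and 4.18 in cKO zygotes, 1.92 and 1.77 in WT 2-cell embryos, and 1.04 and 1 in cKO 2-cell embryos, and fell in both genotypes (log2 difference -1.03, adjusted p = 0.0039 in WT; -1.35, adjusted p = 0.0095 in cKO, or 0.0695 and 0.0761 without cKO 2-cell replicate 1 and 2). The members of this pathway that rose in WT were Fanca, Fancf and Fancg of the core complex, and Fancm, its anchor on DNA.

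In nucleotide excision repair, which removes bulky lesions, 4 of 9 members rose and 1 fell in WT, against 36.6% and 14.9% of all genes, with 3 and 1 in cKO, against 20.7% and 18.2%. Ercc1 and Ercc4 encode the 2 subunits of the nuclease that cuts 5′ of a lesion, and both rose in both genotypes. Ercc1 was at 4.71 and 2.38 FPKM in WT zygotes, 3.02 and 2.61 in cKO zygotes, 27.6 and 27.98 in WT 2-cell embryos, and 80.9 and 62.7 in cKO 2-cell embryos. The mean of Ercc1 rose 7.84-fold in WT (log2 difference 2.71, SE 0.42, adjusted p = 0.0023) and 25.5-fold in cKO (4.25, SE 0.62, adjusted p = 0.0032; 0.0519 without cKO 2-cell replicate 1). Both cKO 2-cell libraries were above both WT 2-cell libraries, but the difference between genotypes was not called (log2 difference 1.33, SE 0.71, adjusted p = 0.31), and its exons overlap those of Cd3eap on the opposite strand. Ercc5, the nuclease that cuts 3′ of the lesion, fell from between 4.39 and 5.39 FPKM in zygotes to at most 1.69 in 2-cell embryos (log2 difference -1.45, adjusted p = 0.00037 in WT).

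Among the genes of single-strand break and base excision repair, the strand-break sensors differed. Parp2 was at 8.38 and 6.61 FPKM in WT zygotes, 9.14 and 7.52 in cKO zygotes, 59.6 and 70.6 in WT 2-cell embryos, and 51.0 and 31.7 in cKO 2-cell embryos, and rose in WT (log2 difference 2.96, SE 0.29, adjusted p = 0.00035) and in cKO (2.15, SE 0.43, adjusted p = 0.01; 0.106 and 0.0549 without cKO 2-cell replicate 1 and 2). Parp1, whose product makes most of the poly(ADP-ribose) of somatic cells, was at 8.71 and 6.42, 7.07 and 6.48, 9.42 and 15.4, and 30.1 and 5.45 FPKM in the 4 groups and was not called. Its cKO 2-cell libraries differed 5.53-fold, the most of any member. Xrcc1, the scaffold for ligase III, was between 2.26 and 9.73 FPKM and was not called.

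Lig3 and Lig1 encode the ligases that seal the nick. Lig3 was at 9.49 and 9.79, 11.1 and 9.45, 5.78 and 4.53, and 10.6 and 7.98 FPKM in the 4 groups. Its fall in WT was called (log2 difference -0.80, adjusted p = 0.032) but not without any 1 of the 4 WT libraries (adjusted p = 0.0577 to 0.169). Lig1, also the ligase of replication, had no called change in WT and fell in cKO (log2 difference -2.01, SE 0.33, adjusted p = 0.0051), with values given below.

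In mismatch repair, 2 of 5 members rose and 3 fell in WT, with 36.6% and 14.9% as the shares of all genes, and 0 rose and 1 fell in cKO, with 20.7% and 18.2%. Msh6, a subunit of the sensor of base mismatches, was at 40.7 and 42.7, 43.0 and 43.2, 14.8 and 15.4, and 36.7 and 17.9 FPKM in the 4 groups (WT log2 difference -1.41, adjusted p = 0.0021). The WT call of Msh6 held without any 1 library.

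Rad18, the ubiquitin ligase of damage tolerance, had the largest log2 fall of any member in WT. It was at 29.0 and 31.9 FPKM in WT zygotes, 42.5 and 36.9 in cKO zygotes, 2.92 and 4.57 in WT 2-cell embryos, and 12.6 and 3.68 in cKO 2-cell embryos. The log2 difference was -2.75 in WT (SE 0.33, adjusted p = 0.00078) and -2.35 in cKO (SE 0.48, adjusted p = 0.011), the latter not called without cKO 2-cell replicate 2 (adjusted p = 0.104).

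The 16 members without a core repair role included large changes in both directions. Parp12, an antiviral mono-ADP-ribosyltransferase, had the next highest zygote level after Chek1, at 452 and 445 FPKM in WT and 367 and 410 in cKO zygotes. It was at 76.7 and 138 FPKM in WT 2-cell embryos and at 54.3 and 20.5 in cKO 2-cell embryos, a fall in WT (log2 difference -2.11, SE 0.33, adjusted p = 0.0023) and in cKO (-3.50, SE 0.48, adjusted p = 0.0027). Parp9 was at the floor in WT zygotes and at 1.47 and 1.09 FPKM in cKO zygotes, and rose to 16.1 and 14.7 in WT and 14.8 and 17.8 in cKO 2-cell embryos (log2 difference 3.04, adjusted p = 0.00016 in WT; 2.92, adjusted p = 0.0018 in cKO). Exons of Parp9 overlap Dtx3l.

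Genes that went from the floor to detection made up part of the rise. In all 4 zygote libraries, 9 members were at the floor, among them Ercc2, Fanca, Fancf, Mlh3, Msh5, Parp3, Parp10 and Parp14. Of these, 8 were above the floor in both WT 2-cell libraries, and 4 (Fancf, Mlh3, Msh5 and Parp10) in both cKO 2-cell libraries. Fancf was the member of this group with the smallest adjusted p in WT, at 5.86 and 4.86 FPKM in WT and 3.97 and 2.80 in cKO 2-cell embryos. Over all 14392 genes, those with no WT zygote value above the floor numbered 4206, against 976 in WT 2-cell embryos. In cKO the same number was 4019 in zygotes and 2802 in 2-cell embryos. The counts of members leaving the floor are therefore not shown to be particular to the members.

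The question of the genotype comparison was how loss of maternal USP16 altered these transcripts. In zygotes, no member was called higher (0.167% of all genes were) and none lower (0.0278% of all genes). At an unadjusted p under 0.05, 6 members were higher in cKO zygotes (7.34% of all genes were) and 4 lower (3.53% of all genes). The log2 differences of the 79 members lay between -0.53 and 0.53, and by the 3-fold rule none was higher (background 0.104%) or lower (background 0.0486%). Both cKO zygote libraries lay above both WT libraries for 17 members, against 15.8% of all genes, and below for 13, against 10.2%. The lowest adjusted p was 0.119 for Parp11, at 1.58 and 1.41 FPKM in WT and 2.29 and 2.50 in cKO zygotes, named here after its value was seen.

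In 2-cell embryos, Ercc4 and Parp6 were lower in cKO, and no member was called higher. The 2 lower members stand against 5.93% of all genes, and the 0 higher members against 0.834%. At an unadjusted p under 0.05, 18 members were lower, against 20.6% of all genes, and 0 higher, against 4.79%. The 3-fold rule gave 5 lower members, Chek1, Ercc4, Lig1, Msh3 and Parp6, where 13.5% of all genes passed, and 0 higher, where 2.84% did. There was no overlap between genotypes for 31 members that were lower in cKO (background 43.4%) and for 10 that were higher (background 14%). The median log2 difference of the members was -0.30 and that of all genes was -0.30. With median-ratio scaling these were 0.10 and 0, and the members with a negative difference went from 44 to 33. The values of single members below are to be read against that shift of all genes. With equal weights for all libraries, limma called 18 members and 24.6% of all genes lower, and 1 member, Ercc1, and 6.16% of all genes higher.

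**Figure D4:**
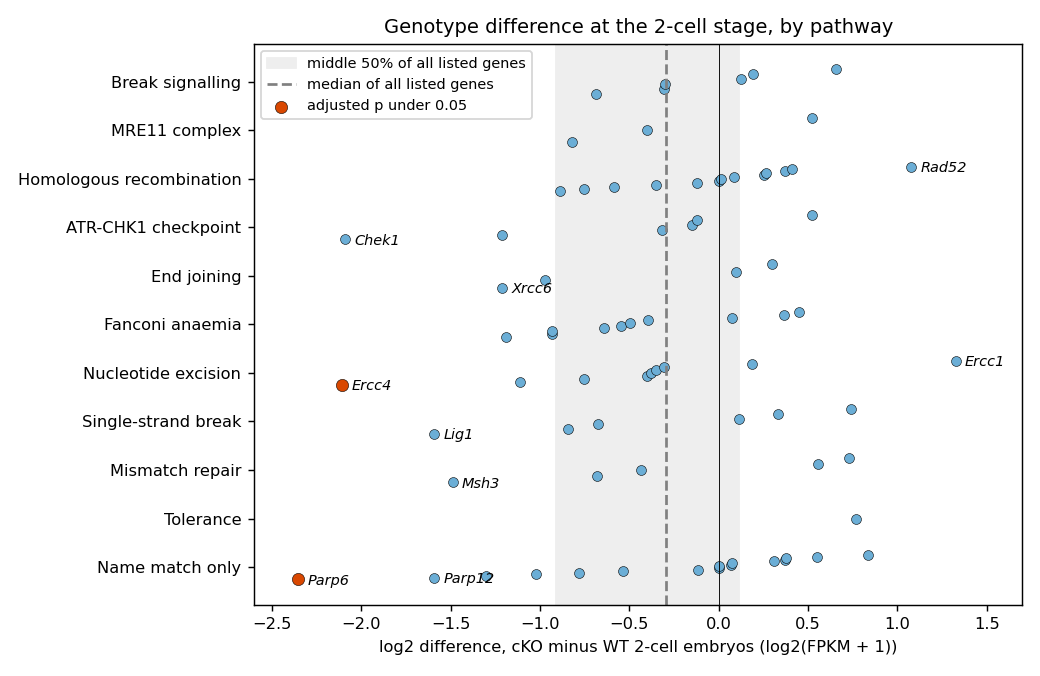
Log2 difference between cKO and WT 2-cell embryos for each of the 79 members (points), in rows by pathway, with members at an adjusted p under 0.05 in orange. The dashed line is the median of all 14392 genes (-0.30) and the grey band their middle 50%. Members of each larger pathway lie on both sides of the dashed line, and Ercc4 and Parp6 are the called ones.

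Ercc4 encodes XPF, the catalytic subunit of the nuclease that ERCC1 partners, and lies on chromosome 16 of mm9 at chr16:13109777-13150710 on the plus strand. It was near the floor in zygotes, at 1.03 and 1.12 FPKM in WT and 1 and 1.07 in cKO. In 2-cell embryos it was at 17.4 and 18.8 FPKM in WT and at 3.22 and 3.65 in cKO. The groups did not overlap, and the mean was 5.27-fold lower in cKO (log2 difference -2.11, SE 0.26, adjusted p = 0.014). The rise from zygotes was called in both genotypes, with log2 differences of 3.20 in WT (SE 0.16, adjusted p = 5.2e-05) and 1.12 in cKO (SE 0.23, adjusted p = 0.011). The rise was smaller in cKO by 2.08 on the log2 scale (SE 0.28, adjusted p = 0.019 for the interaction). For this interaction, the test of whether the stage change differs between genotypes, the background was 4.55% of all genes lower and 0.605% higher, and of the members 2 were lower and 0 higher, with 14 and 0 at an unadjusted p under 0.05 (20.04% and 4.14% of all genes). The genotype difference of Ercc4 was called without any 1 of the 8 libraries (adjusted p at most 0.0496), but not when only the 2-cell groups were fitted (adjusted p = 0.0786), a fit that called 0% of all genes lower. The interaction was lost without WT zygote replicate 1 (adjusted p = 0.0648), WT zygote replicate 2 (0.0642) or cKO zygote replicate 1 (0.0533). Without either WT zygote library 1 gene of all 14392 had a lower interaction call, and without cKO zygote replicate 1 it was 1.46% of all genes.

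Parp6 encodes a mono-ADP-ribosyltransferase with no established core role in repair and lies at chr9:59465091-59498086 of mm9 on the plus strand. It was at 4.46 and 3.67 FPKM in WT zygotes, 2.97 and 3.06 in cKO zygotes, 20.1 and 18.3 in WT 2-cell embryos, and 3.48 and 2.49 in cKO 2-cell embryos. The WT 2-cell libraries were the highest, and both WT zygote libraries also lay above every cKO library of either stage. Its mean was 6.43-fold lower in cKO 2-cell embryos (log2 difference -2.35, SE 0.37, adjusted p = 0.024), after a rise in WT of 2.00 (SE 0.22, adjusted p = 0.00053) and a log2 difference of -0.02 in cKO. The difference of these changes was -2.02 (SE 0.39, adjusted p = 0.043). The genotype call was lost without cKO zygote replicate 1 (adjusted p = 0.0554) or replicate 2 (0.0552) and without cKO 2-cell replicate 2 (0.0814), and the interaction was lost without any 1 of the 8 libraries (adjusted p = 0.0508 to 0.12).

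The bases just upstream of Ercc4 and Parp6 are shown because these were the members called lower in cKO 2-cell embryos. Sequences are from the RefSeq promoter table (GRCm38.p6), each matched once in mm9, on the plus strand, and the Ercc4 stretch stops at the annotated gene start of mm9. Capitals mark a CCAAT box, read as ATTGG on this strand.
Ercc4, chr16:13109579-13109776 of mm9, 198 bases, 49.5% GC: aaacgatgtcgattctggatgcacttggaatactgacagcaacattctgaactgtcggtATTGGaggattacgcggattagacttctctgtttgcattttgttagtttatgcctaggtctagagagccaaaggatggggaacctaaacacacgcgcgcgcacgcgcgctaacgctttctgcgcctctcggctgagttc
Parp6, chr9:59464841-59465090 of mm9, 250 bases, 65.2% GC: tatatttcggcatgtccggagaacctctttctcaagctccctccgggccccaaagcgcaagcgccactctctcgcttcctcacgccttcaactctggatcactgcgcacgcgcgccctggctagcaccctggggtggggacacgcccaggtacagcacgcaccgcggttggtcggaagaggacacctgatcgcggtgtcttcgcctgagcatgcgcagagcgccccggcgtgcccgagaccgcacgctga
The Parp6 stretch held none of the motifs searched, which says only that these letters are not in this window. The search covered the 250 bases before the start on both strands, in 61 of the 79 members with a promoter in the table. GC boxes (GGGCGG) were found in 52.5% of the 61 members and 32.9% of all 27025 promoters, CCAAT boxes (CCAAT) in 47.5% and 34.5%, and E2F sites (TTTGGCGC, TTTCGCGC, TTTCCCGC or TTTGCCGC) in 11.5% and 1.91%. The CHR element (TTTGAA) was found in 8.20% and 16.3% and the NR5A site (AAGGTCA) in 1.64% and 4.05%. Median GC was 58% over the members and 52% over all promoters. Of the members with a promoter, CCAAT boxes were in 11 of 18 that rose in WT and in 5 of 16 that fell, and E2F sites in 3 of 18 and 1 of 16.

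Chek1 was 4.43-fold lower in cKO than in WT 2-cell embryos, with the 2 libraries of each genotype close together (79.5 ± 1.7 FPKM in WT and 17.9 ± 2.2 in cKO, SD, n = 2 each). Its log2 difference of -2.09 was as large as that of Ercc4, but its standard error was 0.50 and its adjusted p 0.063. With genes under a mean of 3 FPKM left out, the adjusted p was 0.0267, with equal weights 0.0024, and with median-ratio scaling 0.23. The difference between the stage changes of Chek1 was -2.10 (adjusted p = 0.076). Chek1 lies at chr9:36516067-36534650 of mm9, with no exon shared with another annotated gene.

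Lig1 was at 11.6 and 11.6 FPKM in WT zygotes, 12.7 and 11.0 in cKO zygotes, 9.24 and 8.02 in WT 2-cell embryos, and 2.57 and 1.84 in cKO 2-cell embryos. The mean was 3.91-fold lower in cKO 2-cell embryos (log2 difference -1.59, SE 0.39, adjusted p = 0.064). The adjusted p was 0.0408 with the filter on low genes and 0.0823 with the replicate block. Over the alternatives other than leaving out a library it ranged from 0.0054 to 0.11. Msh3, a subunit of the sensor of looped-out bases, was at 23.6 and 22.3, 18.7 and 16.1, 12.2 and 12.5, and 2.57 and 5.33 FPKM in the 4 groups. It was 3.12-fold lower in cKO 2-cell embryos (log2 difference -1.49, SE 0.42, adjusted p = 0.09). It also fell between stages, by 0.85 on the log2 scale in WT (adjusted p = 0.028; 0.0631, 0.135 and 0.124 without WT zygote replicate 1, WT 2-cell replicate 1 and WT 2-cell replicate 2) and by 1.95 in cKO (adjusted p = 0.0078; 0.0643 without cKO 2-cell replicate 1). For Lig1 and Msh3 too, both cKO 2-cell libraries were the lowest of the 8, and exons of both overlap a gene on the opposite strand.

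**Figure D5:**
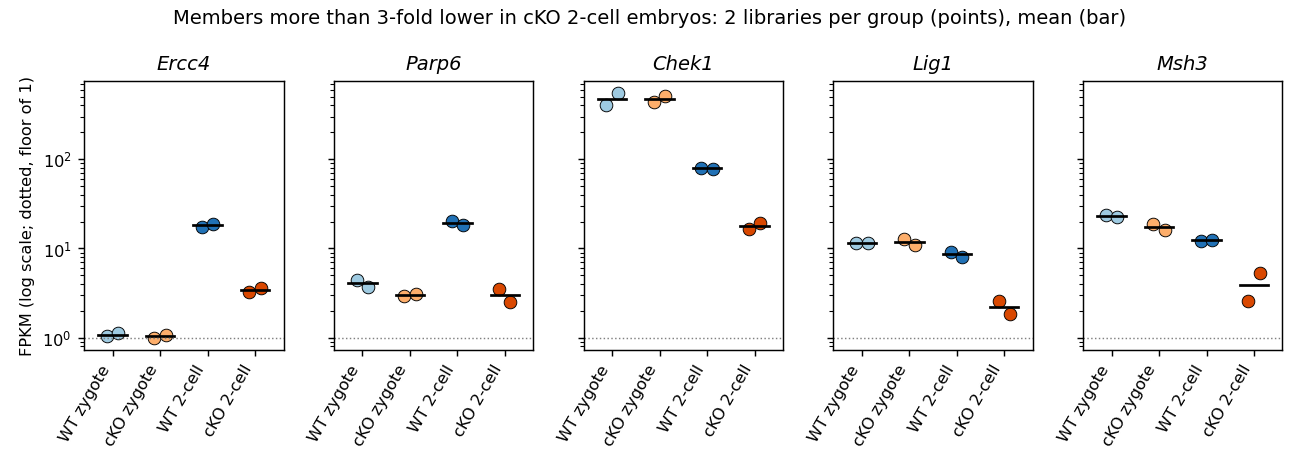
FPKM (log axis, dotted line at the floor of 1) of the 5 members whose cKO 2-cell mean was under the WT 2-cell mean by more than 3-fold, with 2 points and the mean as a bar for each group. Ercc4 and Parp6 rose from zygotes to 2-cell embryos in WT, while Chek1, Lig1 and Msh3 were highest in zygotes.

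These 5 members had different histories. Ercc4 and Parp6 rose in WT, whereas Chek1 and Msh3 fell in WT and fell in cKO as well, and Lig1 fell in cKO. The 10 members above both WT libraries in both cKO 2-cell libraries included Fancd2, Rad51ap1, Nbn, Rad21, Msh6, Lig3, Xrcc6bp1, Rad52 and Ercc1, named here after their values were seen, with log2 differences of 0.37 to 1.33 and no call.

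Repair genes outside the name rule were taken from a list of 119, of which 112 were listed in the table. In WT, 25 of these rose (36.6% of all genes) and 36 fell (14.9%) between stages, and in cKO 20 rose (20.7%) and 25 fell (18.2%). In cKO against WT 2-cell embryos, Ccnh and Gtf2h2 were called higher, where 0.834% of all genes were, and Recql4 lower, where 5.93% were, and in zygotes none was called. Gtf2h2, a subunit of the TFIIH complex that opens DNA in excision repair, was at 40.8 and 41.6 FPKM in WT zygotes, 39.0 and 38.4 in cKO zygotes, 11.2 and 12.6 in WT 2-cell embryos, and 59.8 and 40.5 in cKO 2-cell embryos. It fell in WT (log2 difference -1.71, SE 0.18, adjusted p = 0.00046), was not called between stages in cKO, and differed between genotypes at the 2-cell stage (log2 difference 1.97, SE 0.31, adjusted p = 0.023) and in its stage change (2.05, SE 0.32, adjusted p = 0.027). Ccnh, the cyclin of TFIIH, was at 9.45 and 12.1, 13.5 and 13.6, 11.3 and 9.48, and 54.6 and 38.2 FPKM in the 4 groups (log2 difference at the 2-cell stage 2.04, SE 0.42, adjusted p = 0.044). Recql4, a helicase of replication and repair, was at the floor in zygotes, at 5.43 and 5.72 FPKM in WT and at 2.08 and 2.50 in cKO 2-cell embryos (log2 difference -1.0, SE 0.16, adjusted p = 0.026). The Gtf2h2 and Recql4 calls in 2-cell embryos were lost without any 1 of the 4 zygote libraries (adjusted p = 0.0522 to 0.0526 and 0.0567 to 0.0624), as was the Gtf2h2 interaction (0.0548 to 0.0691), and the Ccnh call was lost without any 1 of the 8 libraries (0.053 to 0.146). The Ccnh call was also lost with median-ratio scaling (adjusted p = 0.0506) and with equal sums (0.0962), the Recql4 call with median-ratio scaling (0.0652), and all 3 calls when only the 2-cell groups were fitted (0.0787, 0.0791 and 0.115 for Gtf2h2, Ccnh and Recql4).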

How the data were processed

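The authors lysed 10 embryos per library, made cDNA by Smart-seq2, trimmed reads to 50 bases, mapped them to mouse mm9 with TopHat 2.1.1 and computed FPKM with Cufflinks 2.2.1. The deposited table holds these FPKM values, which the study calls normalized FPKM. The further normalization and the gene annotation are not given in the sources used here. Values under 1 had been raised to 1, and genes never above 1 were left out. Read counts are not part of such values, so library depth is unknown, no counting interval can be given, and the 2 libraries per group set the precision. The 7 ChIP-seq samples of the series were not analysed here.

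Groups came from the sample labels. The R package limma (3.58.1, under R 4.3.3) was fitted to log2(FPKM + 1) over all 14392 genes, with a trend in the prior, all 4 groups in 1 model (4 residual degrees of freedom) and 1 weight per group estimated from the data, which was 2.402 and 4.058 for WT and cKO zygotes and 0.5094 and 0.2014 for WT and cKO 2-cell embryos. Weights by group were used because the spread between replicates differed by group. The scripts were tested on simulated data, in which the weighted fit missed most of the changes made between the 2-cell groups, so a member without a call is not shown to be unchanged. Group means were also compared by the study's 3-fold rule, and other steps used Python 3.11.15, numpy 2.4.6 and pandas 2.3.3. Alternatives covered the pseudocount, a filter on low genes, scaling, weights, the groups fitted, a replicate block and leaving out each library. The crossed replicate block was added after the data had been seen.

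The members, pathways and lists were chosen with earlier results of these data known. Values in every library are given for fixed core factors, members called or past 3-fold between genotypes, and the 6 largest called rises and falls in WT. Other members and the genes singled out beside them were named after their values were seen. GENCODE M1 on mm9, which holds all 79 members, gave coordinates and exon overlaps, and exons of 28 overlap another gene, whose reads cannot be told apart without strand. Beside the members whose overlap is given above, these include Xrcc4, Xrcc6, Fancd2, Fanci, Lig3 and Msh6. Promoter sequences are from RefSeq (GRCm38.p6). Single-gene results of 3 members are not reported here, although the counts include them.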

Additional observations from a re-analysis of the deposited data

Results flagged for a closer look

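For 2 members the genotypes differed more at the 2-cell stage than in zygotes by the interaction term of limma over all genes, a test of the difference itself. For Ercc4 the log2 difference between cKO and WT was lower by 2.08 at the 2-cell stage than in zygotes (interaction -2.08, SE 0.28, adjusted p = 0.019). For Parp6 the interaction was -2.02 (SE 0.39, adjusted p = 0.043). The Parp6 interaction was lost without any 1 of the 8 libraries, with median-ratio scaling (adjusted p = 0.0624) and with the replicate block (0.0717). It was also lost without a pseudocount (0.0501). In both members, the 2 cKO 2-cell libraries lay below the 2 WT 2-cell libraries, while cKO and WT zygotes were within 0.33 of each other on the log2 scale. For Parp6, both cKO zygote libraries also lay below both WT zygote libraries. No explanation was tested. Groups of 2 libraries are too small for a check of single libraries that stand apart.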

How the results depend on the processing

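None of the 50 single-gene results followed under the alternatives changed direction, and other called members were followed only through the counts. Of 844 values of 50 single-gene results under the alternatives, 758 stayed on the same side of the threshold, 80 lost their call and 6 gained one. In cKO against WT 2-cell embryos, limma called 2 members lower and 0 higher, against 4 lower with a mean FPKM of at least 3 (8.99% of genes), 18 lower and 1 higher with equal weights (24.6% and 6.16%) and 0 lower when only these 2 groups were fitted (0% of all genes). In the stage comparisons, median-ratio scaling gave 30 members lower in WT instead of 19 (20.5% of all genes), and fitting only the cKO groups gave 9 higher instead of 14 (14.4%) and 10 lower instead of 18 (11.98%). For the interaction, 2 members were lower, with 1 under median-ratio scaling (2.13% of all genes) and 4 with equal weights (10.2%). By the fold rule in 2-cell embryos, 0 higher and 5 lower members became 3 and 20 at 2-fold, 2 and 3 with median-ratio scaling, and 10 lower with equal sums. In WT stages 8 lower became 19 at 2-fold (2246 of all genes) and 15 with median-ratio scaling (1643 of all genes). In cKO stages 19 lower became 12 when every library had to differ by 3-fold (2114 of all genes). The median of the members in 2-cell embryos was -0.30, and 0.10 with median-ratio scaling. The cause was not tested, except that a 2-fold threshold admits more genes by construction.

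Replicate numbers are shared by the groups, but no source ties same-numbered libraries to each other. Deviations of same-numbered libraries correlated at 0.497 in zygotes, -0.239 in 2-cell embryos, 0.11 between WT stages and 0.0428 between cKO stages. With the replicate block, limma called 1 member lower in cKO 2-cell embryos (Ercc4, adjusted p = 0.0396), 1 member higher in cKO zygotes (Parp11) and 1 for the interaction, and the paired fold rule gave 8 lower members. Parp6 was lost under the block (adjusted p = 0.0528), and so were Ccnh (0.0728), Recql4 (0.0594) and the Gtf2h2 interaction (0.0535, and 0.0512 with the crossed numbers). The crossed pairing, added after seeing the data, gave 1, 1 and 1 as well, against 3.07%, 2.42% and 1.83% of all genes.

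Leaving out each library in turn gave 0 to 1 members higher and 1 to 7 lower with limma in cKO 2-cell embryos, 0 to 0 in zygotes, 22 to 28 higher and 11 to 20 lower between WT stages, 7 to 16 higher and 8 to 19 lower between cKO stages, and 0 to 1 higher and 0 to 5 lower for the interaction. By the fold rule it gave 0 to 1 higher and 6 to 10 lower in cKO 2-cell embryos, 0 to 0 in zygotes, 19 to 21 and 8 to 11 between WT stages and 12 to 21 and 16 to 20 between cKO stages. The median in 2-cell embryos ranged from -0.50 to 0. A lone library left in a group was assumed to vary like its group in the full fit. The counts over all genes also moved when a library was left out and are not given beside these ranges. The ranges are therefore not read as a result about the members.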
